A study of Mus musculus with 43 samples.

Results

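The 9 genes Jun, Junb, Jund, Fos, Fosb, Fosl1, Fosl2, Atf3 and Maff, which encode subunits and relatives of the transcription factor AP-1, were read in every expression file of a study of mouse intestinal regeneration. They were found by gene symbol, with all 9 present among the 23951 genes of each of 3 bulk expression tables and among the 54307 gene rows of each of 7 single-cell libraries. Bulk RNA came from primary intestinal organoids of wild-type (WT) C57BL/6 mice, which are epithelial cultures without the cells of the gut wall. They were grown in 6 groups of 3 libraries: non-irradiated at day 7 (D7), irradiated with 4 Gy on day 4 and harvested at D7, and irradiated in the same way but harvested on day 11 (D11), each with vehicle or with 2 ng/mL of the cytokine TGFB1 for 24 h from day 6. The D11 organoids were thus collected after TGFB1 had been withdrawn. Single cells came from D8 organoids of the same strain and genotype, irradiated with 4 Gy at day 4 and given vehicle (the 0 h library) or 1 ng/mL TGFB1 for 6, 15 or 24 h, with 1 library at each time. The other 3 single-cell libraries held crypt cells of Mki67tm1.1Cle/J mice, sorted for a red fluorescent reporter of the proliferation gene Ki67, from a non-irradiated littermate control (1 library) and 56 h after 12 Gy to the whole body (2 libraries). The number of organoid lines or mice behind a library is not stated in the labels, so the p-values measure the spread between these libraries, which may be technical.

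AP-1 is a dimer of basic leucine zipper proteins. JUN proteins pair with each other or with FOS proteins, and ATF3 and the small MAF protein MAFF join related dimers, so the makeup of the complex follows from which subunits a cell makes. Many of these genes are immediate-early genes, transcribed within minutes of a growth factor, cytokine or stress signal through MAP kinases, and JUN family proteins also work with the SMAD factors that carry the TGFB signal. In the intestine AP-1 is known for its part in proliferation, wound repair and inflammation. Because tissue dissociation is itself such a stress, FOS and JUN transcripts can rise while single cells are prepared.

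The promoters of Jun, Fos, Atf3 and Maff are shown because each holds an AP-1-type or CRE-type element near its start and because all 4 were called higher with TGFB1 at D7. Junb and Fosl2 were called higher at D7 too, with and without irradiation, and Jund with irradiation. The windows of these other genes held none of the AP-1-type or CRE-type elements searched, so the choice ties no element to the response. The stretches cover the 120 bases before the annotated start (RefSeq, build GRCm38.p6), 5′ to 3′ on the gene's own strand, with the matched element in capitals. Windows of 250 bases before to 50 after the start were at hand for 8 of the 9 genes (not Fosl1), 10 windows in all since Maff has several starts.
Jun (chr4:95052223-95052342, minus strand): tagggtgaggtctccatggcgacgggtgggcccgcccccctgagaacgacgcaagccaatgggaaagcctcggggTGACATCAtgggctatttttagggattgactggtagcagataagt
Fos (chr12:85473770-85473889, plus strand): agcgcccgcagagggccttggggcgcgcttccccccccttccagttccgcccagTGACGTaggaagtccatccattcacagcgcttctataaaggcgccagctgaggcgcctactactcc
Atf3 (chr1:191183334-191183453, minus strand): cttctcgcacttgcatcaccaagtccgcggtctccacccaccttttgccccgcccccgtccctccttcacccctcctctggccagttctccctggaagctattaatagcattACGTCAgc
Maff, a middle start (chr15:79347400-79347519, plus strand): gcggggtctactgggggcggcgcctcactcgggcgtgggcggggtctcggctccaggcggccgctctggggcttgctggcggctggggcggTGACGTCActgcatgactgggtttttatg
Maff, a downstream start (chr15:79348282-79348401, plus strand): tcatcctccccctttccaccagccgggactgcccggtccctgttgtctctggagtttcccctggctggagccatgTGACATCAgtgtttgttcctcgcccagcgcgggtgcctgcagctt
In Jun the capitals mark TGACATCA, the variant AP-1 element through which JUN is known to act on its own gene. It began 45 bases before the start in Jun and again in the downstream window of Maff, and 3.62% of all 32851 RefSeq windows hold it on either strand. The full cAMP response element TGACGTCA stood in the middle window of Maff, 29 bases before the start, and in 1.79% of all windows. Its core TGACGT began 66 bases before the start of Fos and lay reversed, 8 bases before the start, in Atf3. Searched on both strands, this core was in 3 of the 10 windows and in 7.51% of all windows, and it overlaps the full element by construction. The core was chosen after these promoters had been read, so its count is a description only. The classic AP-1 element TGACTCA (5.2% of all windows), the SMAD palindrome GTCTAGAC (0.213%) and the CArG box of serum response factor (1.63%) were in none of the 10 windows. Elements more than 250 bases before a start were not searched. The TATA box letters TATAAA began 33 bases before the start in Fos. In Junb they began at position 1, at the annotated start and not upstream of it. These letters were in 13.6% of all windows. A match describes the letters only and says nothing about binding.

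Each bulk library had between 11040 and 11361 genes above 1 FPKM (fragments per kilobase of transcript and per unit of depth, so a level per length), and its read depth is unknown here. Within a group the median coefficient of variation over genes ran from 3.13% to 5.36%, except in the D11 vehicle libraries, where it was 8.24%. Markers of other tissues were low in all 18: 6 of 9 measured immune markers averaged under 0.1 FPKM in each group and their sum stayed at or under 11.6 FPKM, the mesenchymal sum at or under 4.86, the endothelial at or under 0.601 and the erythroid at or under 0.243. The summed FPKM of 9 regenerative markers (Clu, Anxa1 and others) was 423 to 463 with vehicle and 3550 to 3760 with TGFB1 in non-irradiated D7 organoids, 444 to 493 and 5190 to 5610 in irradiated D7 organoids, and 257 to 376 and 5260 to 6110 at D11. The summed FPKM of 8 mitotic markers was 597 to 606 with vehicle and 290 to 300 with TGFB1 in the first setting, 736 to 749 and 181 to 220 in the second, and 654 to 741 and 695 to 819, which overlap, at D11. That of 8 S-phase markers was 407 to 415 and 176 to 195 in irradiated D7 organoids, and its ranges overlapped in the other two settings. That of 10 enterocyte markers was 3350 to 3490 and 1550 to 1680 in the first setting, 14300 to 15300 and 21200 to 22100 in the second, and 3480 to 6120 and 2270 to 2680 at D11. A summed level follows the most abundant genes of its list. In the second setting Apoa1 went from 2280 to 6480 FPKM, while Anpep went from 259 to 98.5. In bulk RNA, fewer cells of a type and less RNA per cell cannot be told apart, and the part of these shifts in the AP-1 levels was not tested.

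With TGFB1, 5 to 8 of the 8 tested AP-1 genes were called higher in each setting. In irradiated D7 organoids all 8 genes that passed the filter (a mean of at least 1 FPKM) were called higher by limma at an adjusted p under 0.05, where 35.8% of all tested genes were called higher, and 7 of the 8 rose at least 2-fold, where 7.79% of all genes did. In non-irradiated D7 organoids 7 of 8 were called higher (33.3% of all genes) and 4 rose at least 2-fold (5.52%). At D11, 5 of 8 were called higher (32.3%) and 3 rose at least 2-fold (5.67%). None was called lower in any of the 3 fits, where 34.9%, 39.7% and 31.6% of all genes were. The median log2 change of the 8 genes was 0.90, 1.53 and 0.62 in non-irradiated D7, irradiated D7 and D11 organoids, against -0.02, -0.03 and 0.01 over all tested genes. Fosb failed the filter in all 3 tables.

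**Figure D1:**
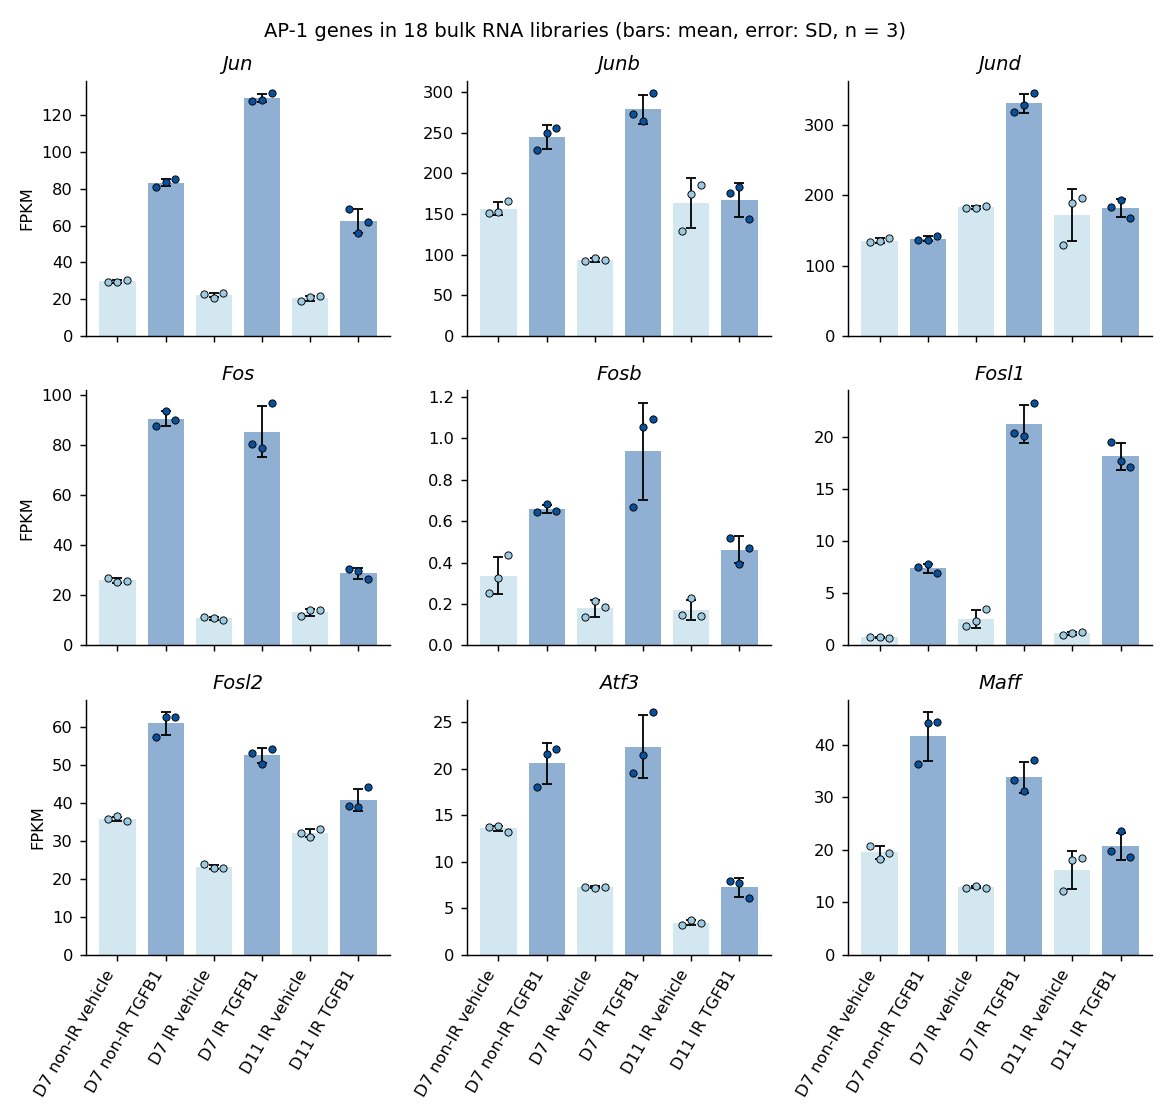
FPKM (vertical axes, from 0) of the 9 AP-1 genes in 18 bulk libraries of 6 groups, with points for libraries, bars for group means and error bars for the SD of 3 libraries. TGFB1 libraries (dark) lie above vehicle libraries (light) of the same table in every panel, except for Jund in non-irradiated D7 and Junb and Jund at D11, where the groups overlap.

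Jun encodes the first described JUN subunit, a strong activator. In non-irradiated D7 organoids it stood at 29.3, 29.2 and 30.4 FPKM with vehicle and at 81.0, 83.9 and 85.1 with TGFB1. In irradiated D7 organoids the values were 22.7, 20.8 and 23.4 against 127, 128 and 132. At D11 they were 18.9, 21.0 and 21.5 against 69.0, 56.2 and 62.1. The groups did not overlap in any table, and the 3 irradiated TGFB1 libraries at D7 were the highest of all 18. The log2 change was 1.46 (SE 0.036), 2.48 (SE 0.0463) and 1.56 (SE 0.0898) in turn, with limma adjusted p of 1e-10, 3.61e-11 and 5.66e-07.

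Junb, a JUN family member often described as a weaker activator and a brake on JUN, was one of the 2 most abundant AP-1 genes. Its vehicle libraries at D7 held 152, 152 and 165 FPKM without irradiation and 91.8, 96.5 and 92.9 with it. TGFB1 libraries held 228, 249.6 and 256 without irradiation and 273, 265 and 299 with it. Both differences were larger than the spread between libraries, with log2 changes of 0.64 (SE 0.0486, limma adjusted p = 7.08e-07) and 1.56 (SE 0.0474, limma adjusted p = 8.62e-10). At D11 the vehicle libraries held 129, 175 and 186 FPKM and the TGFB1 libraries 176, 183 and 143. These overlapped, and the log2 difference of 0.04 (95% interval -0.29 to 0.38, limma adjusted p = 0.806) was not called. Its sign turned without vehicle replicate 1, to -0.12, and without TGFB1 replicate 2, to -0.02.

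Jund is the JUN member known for steady expression and for slowing growth. Without irradiation, D7 values were 133, 135 and 139 FPKM with vehicle and 136, 137 and 142 with TGFB1, which overlap. The log2 difference was 0.03 (95% interval -0.04 to 0.10, limma adjusted p = 0.462), and it was -0.07 after quantile normalization. With irradiation, D7 values were 182, 182 and 185 against 318, 328 and 345, a log2 change of 0.85 (SE 0.0382, limma adjusted p = 1.12e-08). At D11 the values of 129, 189.6 and 197 FPKM with vehicle and 184, 194 and 168 with TGFB1 overlapped again. The log2 difference there was 0.11 (95% interval -0.24 to 0.45, limma adjusted p = 0.562), and -0.09 without vehicle replicate 1. That library was the lowest of its group for Junb, Jund and Maff alike.

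Fos, the classic immediate-early partner of JUN, had the largest rise of the abundant genes at D7. Without irradiation it went from 27.0, 25.2 and 25.8 FPKM with vehicle to 87.7, 93.7 and 90.2 with TGFB1. With irradiation it went from 11.3, 10.9 and 10.2 to 80.4, 78.8 and 97.1. At D11 the values were 11.6, 14.1 and 14.1 against 30.5, 29.7 and 26.4. No groups overlapped, and the D7 TGFB1 levels with and without irradiation did overlap each other, so the larger ratio in irradiated organoids went with a lower vehicle level. The log2 changes were 1.76 (SE 0.0402), 2.87 (SE 0.0767) and 1.07 (SE 0.0946), with limma adjusted p of 5.81e-11, 1e-09 and 8.54e-06.

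Fosl1 encodes FRA1, a FOS relative without a strong activation domain that is itself a target of AP-1 and is known from migrating and wound-edge epithelium. Its vehicle values were low, at 0.777, 0.845 and 0.699 FPKM in non-irradiated D7 organoids, 1.84, 2.34 and 3.52 in irradiated D7 organoids and 1.03, 1.19 and 1.26 at D11. With TGFB1 it stood at 7.52, 7.78 and 6.95, at 20.4, 20.1 and 23.3, and at 19.6, 17.7 and 17.1. The group means differed 9.59-fold, 8.28-fold and 15.6-fold. On the log2(FPKM + 1) scale, which understates changes from such low levels, the log2 changes were 2.25 (SE 0.0714), 2.67 (SE 0.16) and 3.14 (SE 0.0951), with limma adjusted p of 6.51e-10, 2.02e-06 and 1.9e-08. Counted from the largest rise, Fosl1 was number 104 of 11330 genes in the non-irradiated table, number 93 of 11258 in the irradiated D7 table and number 49 of 11479 at D11. It was the one AP-1 gene with its largest log2 change at D11, after TGFB1 had been withdrawn.

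Fosl2, which encodes FRA2, was called higher in all 3 tables. It went from 35.7, 36.5 and 35.4 FPKM to 57.6, 62.8 and 62.9 in non-irradiated D7 organoids and from 23.8, 22.9 and 23.0 to 53.2, 50.4 and 54.2 in irradiated ones. At D11 it went from 32.2, 31.1 and 33.2 to 39.4, 39.1 and 44.3. The log2 changes were 0.75, 1.14 and 0.33, with limma adjusted p of 4.86e-08, 3.08e-09 and 0.00304. The D11 rise was the smallest one called among the 9 genes in these 3 tables.

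Fosb, the FOS member best known from the brain, was barely present in bulk RNA, at 0.136 to 0.434 FPKM in the vehicle libraries and 0.393 to 1.09 in the TGFB1 libraries. Within each table its 3 TGFB1 libraries lay above its 3 vehicle libraries, with ratios of means of 1.95, 5.23 and 2.69 in the order above. An exact two-sided permutation test gave p = 0.1 in each, the smallest that 3 against 3 libraries allow. Without the filter limma called it higher in all 3 tables.

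Atf3, a stress-induced factor that can repress as well as activate, rose in each table. Its FPKM went from 13.7, 13.8 and 13.2 to 18.1, 21.6 and 22.1 without irradiation, from 7.31, 7.17 and 7.32 to 19.6, 21.5 and 26.1 with irradiation at D7, and from 3.17, 3.73 and 3.44 to 8.00, 7.75 and 6.08 at D11. None of these groups overlapped. The log2 changes of 0.56, 1.49 and 0.89 had limma adjusted p of 3.07e-05, 1.34e-07 and 0.000102.

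Maff encodes a small MAF protein, which lacks an activation domain and acts through its partners. Without irradiation it went from 20.8, 18.3 and 19.5 FPKM to 36.3, 44.2 and 44.5, and with irradiation at D7 from 12.8, 13.2 and 12.7 to 33.2, 31.3 and 37.1. The log2 changes were 1.05 and 1.33, with limma adjusted p of 1.53e-06 and 1.17e-08. At D11 its values of 12.1, 18.1 and 18.5 with vehicle and 19.9, 23.5 and 18.6 with TGFB1 did not overlap. The log2 difference of 0.35 missed the threshold there (limma adjusted p = 0.0827) and ranged from 0.16 to 0.45 when single libraries were left out. Without vehicle replicate 3 the limma adjusted p was 0.0432.

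**Figure D2:**
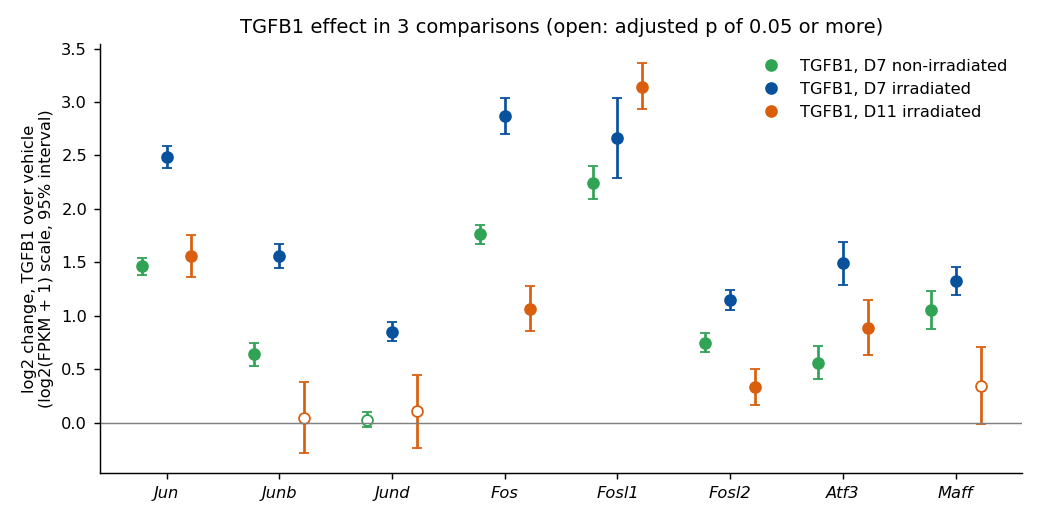
Log2 change with TGFB1 over vehicle (vertical axis, log2(FPKM + 1) scale) for the 8 AP-1 genes that passed the filter, with limma 95% intervals, in non-irradiated D7 (green), irradiated D7 (blue) and D11 organoids (orange). Filled points were called and open ones not. The blue point is the highest for every gene but Fosl1, whose D11 value of 3.14 is the highest in the plot.

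Whether irradiation changed the effect of TGFB1 was tested in 1 fit over the 12 D7 libraries. The tables were deposited separately, and a scale shared by all libraries of a table drops out of this term for genes far above the pseudocount of 1 FPKM, but not fully for low ones such as Fosl1. The effect was larger in irradiated organoids for 7 of 8 genes, where 25.3% of all genes were called in that direction and 27.8% in the other. The log2 differences were 1.02 for Jun (limma adjusted p = 5.97e-09), 0.92 for Junb (1.78e-07), 0.82 for Jund (8.7e-09), 1.11 for Fos (3.02e-07), 0.93 for Atf3 (2.42e-05) and 0.39 for Fosl2 (5.83e-05). Maff, at 0.27 with a limma adjusted p of 0.0459, was the seventh, and 8 of the 12 fits that left out a library lost it. For Fosl1 the difference was 0.42 (95% interval 0.04 to 0.80, limma adjusted p = 0.0623). It was 0.61 without the third irradiated vehicle library, which held 3.52 FPKM, and -0.06 with a pseudocount of 0.1, so its direction depended on how low values were scaled.

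Between D7 and D11 the same kind of fit over the 12 irradiated libraries gave a smaller effect at D11 for 7 genes, where 33% of all genes were called in that direction. The largest drop was that of Fos, by 1.80 on the log2 scale (limma adjusted p = 5.08e-08), then of Junb, by 1.51 (4.18e-06). Maff, Jun, Fosl2, Jund and Atf3 followed with -0.98, -0.92, -0.81, -0.75 and -0.60, with limma adjusted p from 1.23e-06 to 0.00305. Fosl1 was the exception, with an effect larger by 0.48 at D11 (95% interval 0.08 to 0.88, limma adjusted p = 0.0373), where 31.5% of all genes were called higher. That call was lost in 7 of the 12 fits that left out a library, with limma adjusted p up to 0.0846, and the difference fell to 0.29 without the third D7 vehicle library. The day of collection, the time since irradiation and the time since TGFB1 cannot be told apart in this comparison.

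The levels themselves differed between tables, and these are given as a description, since the tables were deposited separately and whether they were scaled together is not stated. Without TGFB1, Jund and Fosl1 were higher in irradiated than in non-irradiated D7 organoids in all 3 libraries, 1.35-fold and 3.31-fold over the means, where 40.7% of genes were higher without overlap. The other 6 genes that passed the filter were lower, where 44.3% of genes were, with ratios from 0.415 for Fos and 0.535 for Atf3 to 0.752 for Jun. With TGFB1, Jun (1.55-fold), Junb (1.14-fold), Jund (2.39-fold) and Fosl1 (2.86-fold) were higher in irradiated D7 organoids (38.4% of genes) and Fosl2 was lower (0.861, 45.7% of genes), while Fos, Atf3 and Maff overlapped. From D7 to D11 with vehicle and irradiation, Junb (1.74-fold), Fos (1.23-fold) and Fosl2 (1.38-fold) were higher (33.7% of genes) and Fosl1 (0.454) and Atf3 (0.474) lower (33.1%), while Jun, Jund and Maff overlapped. With TGFB1 over the same days the libraries of all 8 genes lay lower (38.8% of genes). Fosl1 had the smallest drop, to 0.854 of its D7 level, and Atf3 and Fos the largest, to 0.325 and 0.338.

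Within the JUN and FOS families the proportions of FPKM shifted with these changes. Jun made up 9.21% of the summed Jun, Junb and Jund FPKM with vehicle in non-irradiated D7 organoids (range 9.08% to 9.33% over 3 libraries) and 17.9% with TGFB1 (17.6% to 18.2%). In irradiated D7 organoids it went from 7.47% to 17.5%, and at D11 from 5.86% to 15.2%, with no overlap in any table. Among the FOS genes, Fosl2 was the largest vehicle share in each table, at 57% in non-irradiated D7, 63.2% in irradiated D7 and 68.8% in D11 organoids. With TGFB1 at D7, Fos took the largest share, 56.7% without and 53.2% with irradiation. At D11 the TGFB1 libraries held 46.3% Fosl2, 32.7% Fos and 20.5% Fosl1. The Fosl1 share had been 2.48% with vehicle there, and the ranges of 2.29% to 2.59% and 19.4% to 21.7% lie far apart. Shares of RNA say nothing of the proteins or of their dimers.

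**Figure D3:**
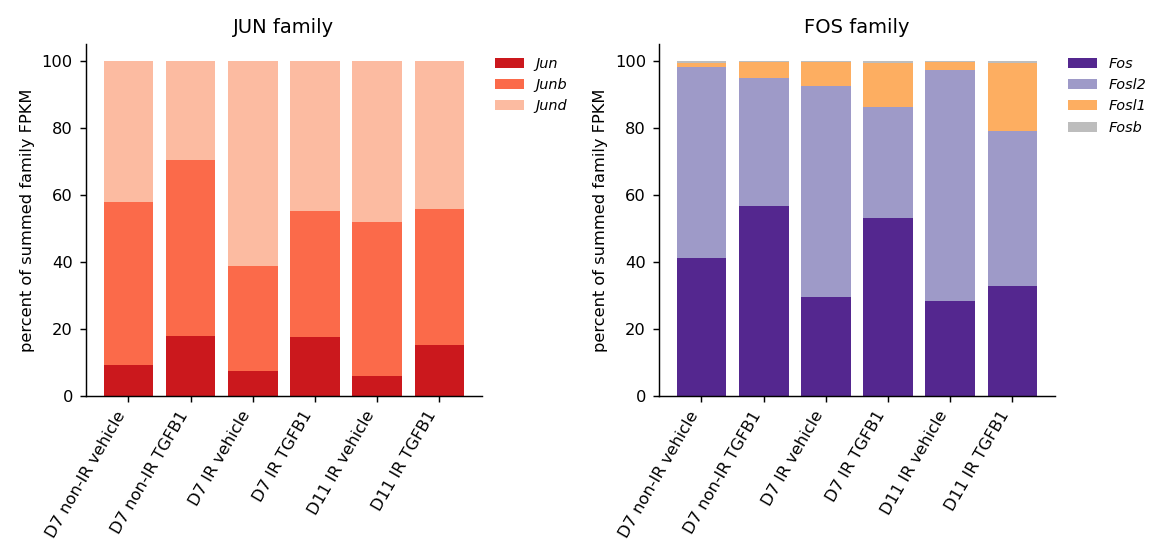
Mean percent of the summed FPKM of the JUN family (left) and the FOS family (right) held by each gene in 6 groups of 3 bulk libraries. The Jun share is higher in each TGFB1 group than in its vehicle group, and Fosl1 reaches 20.5% of the FOS sum in D11 TGFB1 organoids.

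In non-irradiated D7 vehicle organoids the order of the levels per length ran from Junb (157 ± 7.75 FPKM, SD, n = 3) and Jund (136 ± 3.27), to Fosl2 (35.9 ± 0.552), Jun (29.6 ± 0.683), Fos (26.0 ± 0.942), Maff (19.5 ± 1.29) and Atf3 (13.6 ± 0.318), and then far down to Fosl1 (0.773 ± 0.073) and Fosb (0.338 ± 0.0905). No neighbours in this order overlapped. In irradiated D7 vehicle organoids Jund (183 ± 1.74) stood above Junb (93.8 ± 2.43). In D11 vehicle organoids their ranges, 129 to 186 for Junb and 129 to 197 for Jund, overlapped, as did those of Fos and Maff.

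For each gene, the others with the most similar pattern over the 6 group means were sought among 4810 candidate genes, by the root mean square distance of log2 levels centred and scaled for each gene. Jun was closest to Kctd10, F2rl1 and Tnfrsf12a, Fos to Dusp10, Pvr and Fgd6, and Maff to F3 (tissue factor, which starts blood clotting), Pvr and Clic1. Fosl1, with the smallest distance of all 8 (0.0389), was closest to Tbc1d2, whose TGFB1 groups held 7.88, 12.8 and 11.2 FPKM against 3.45, 4.90 and 3.92 with vehicle. Junb was closest to Tgfb1 itself, the gene of the added cytokine, at 28.3, 33.5 and 13.3 FPKM with TGFB1 against 9.95, 3.43 and 14.3 with vehicle. Fosl2 paired with Akap13, Lamb3 and Eef2k, Atf3 with Rhpn2, Ifrd1 and Atp6v0b, and Jund with Slc38a7, Trafd1 and Lgals9. A similar pattern over 6 groups is common and says nothing of shared control.

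For the other genes of the AP-1 system, each count is of genes called higher and lower by limma in non-irradiated D7, irradiated D7 and D11 organoids in turn. Over all tested genes 33.3% and 34.9%, 35.8% and 39.7%, and 32.3% and 31.6% were called higher and lower. Of other AP-1 relatives, 4 and 2 of 7 tested were called, then 5 and 0 of 8, then 5 and 1 of 7. Jdp2, a repressor that dimerizes with JUN, was higher in all 3, by log2 changes of 0.88, 1.12 and 1.45, and Maf was lower in the first and the last, by -0.31 and -2.03. Among partners of small MAF proteins, 3 and 1, then 3 and 0, then 2 and 2 of 5 were called. Nfe2l3 was higher throughout, by 3.02, 2.71 and 2.38, and Bach1, a repressor that pairs with small MAF proteins, changed by -0.49, 0.38 and -1.55.

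Upstream, the MAP kinases showed 6 higher and 4 lower of 16 tested, then 10 and 3 of 16, then 7 and 6 of 17, of which the first and the last lie near the shares over all genes of 33.3% and 34.9% and of 32.3% and 31.6%. The p38 kinase gene Mapk11 rose by 0.71, 1.68 and 1.22, while Map2k6, an activator of p38 kinases, changed by -0.82, -1.47 and -1.27. The MAP kinase phosphatases, which switch these kinases off and are themselves induced by them, had 7 higher and 1 lower of 10, then 9 and 0, then 6 and 1, beside 33.3%, 35.8% and 32.3% called higher over all genes. Dusp1 rose by 1.47, 2.04 and 1.29. Median log2 changes of this list were 0.66, 0.85 and 0.43.

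Textbook AP-1 targets were mostly higher in all 3 tables, with 9 and 1 of 12 tested, then 8 and 3 of 12, then 9 and 1 of 11, and median log2 changes of 1.40, 1.58 and 1.19, beside 33.3%, 35.8% and 32.3% of all genes called higher. The urokinase receptor gene Plaur went from 31 to 131 FPKM, from 19 to 137 and from 31.4 to 118. The adhesion receptor gene Cd44 went from 18.7 to 112, from 20.2 to 86.1 and from 21.3 to 75.3. In the test of day by TGFB1, 5 targets were called with a larger and 3 with a smaller effect at D11 of 11 tested, where 31.5% and 33% of all genes were, so the smaller ones lie near the background. Other immediate-early genes, a list that also holds Dusp1, had 9 higher and 2 lower of 13 tested, then 13 and 0, then 5 and 2, and 12 of 13 had a smaller effect at D11 in the same test. Klf6, which led them at D7, rose by 1.66 without irradiation. Heat-shock genes were called in both directions, 4 higher and 4 lower of 10 tested, then 4 and 6 of 11, then 7 and 1 of 11, and the first of these counts lies near the shares over all genes.

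Single cells gave a time course of the rise in irradiated organoids. After filtering, the 0, 6, 15 and 24 h libraries held 2932, 4283, 2890 and 2218 cells with medians of 8202, 6709, 7805 and 10441 unique molecular identifiers (UMIs), a count of captured RNA molecules. Libraries shared 1 barcode between 15 and 24 h and 1 between 24 h and the second irradiated crypt library. Levels are CPM, a gene's UMIs summed over the cells of a library and scaled to the same total, and with 1 library per time their 95% exact Poisson intervals cover counting error only and no test was made. No AP-1 gene was 2-fold higher at 6 h (1.3% of all genes were) or at 15 h (2.6%). At 24 h, 2 of 9 were, Atf3 and Fosl1 (5.44%). The median log2 ratio of the 9 genes to 0 h was -0.02 at 6 h for the 8 at or above a mean of 5 CPM, 0.63 at 15 h and 0.77 at 24 h, against 0.03, 0.00335 and 0.03 over all genes.

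At 6 h the 9 genes split. Fos went from 589 (580.1 to 598) to 753 (744 to 763) CPM and Jun from 394 (386 to 401) to 496 (488 to 504). Junb went the other way, from 234 (229 to 240.3) to 202 (198 to 207), as did Jund, from 206 to 183, Atf3, from 114 to 102, and Fosb, from 59.8 to 44.0. Their intervals at 0 and 6 h did not overlap. Fosl1, Fosl2 and Maff lay within 1.16-fold of their 0 h level.

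By 15 h all 9 genes were above 0 h. Fos stood at 970.1 CPM at 15 h and 981 at 24 h, and Jun at 613 and 672, 1.56-fold and 1.71-fold over 0 h. Junb reached 296 and 322, Jund 227 and 289, Fosl2 144 and 163, Fosb 74.3 and 80.3 and Maff 27.4 and 33.1. Atf3 went from 193 at 15 h to 274 CPM at 24 h, 2.40-fold over 0 h (95% interval 2.31 to 2.51). Fosl1 rose from 4.10 (3.37 to 4.93) at 0 h and 4.63 at 6 h to 8.17 at 15 h and 9.70 (8.63 to 10.9) at 24 h, a ratio of 2.37 (1.90 to 2.97). It rests on 112 and 297 UMIs, and its 15 h ratio of 2.00 (log2 0.997) fell just under the 2-fold line.

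**Figure D4:**
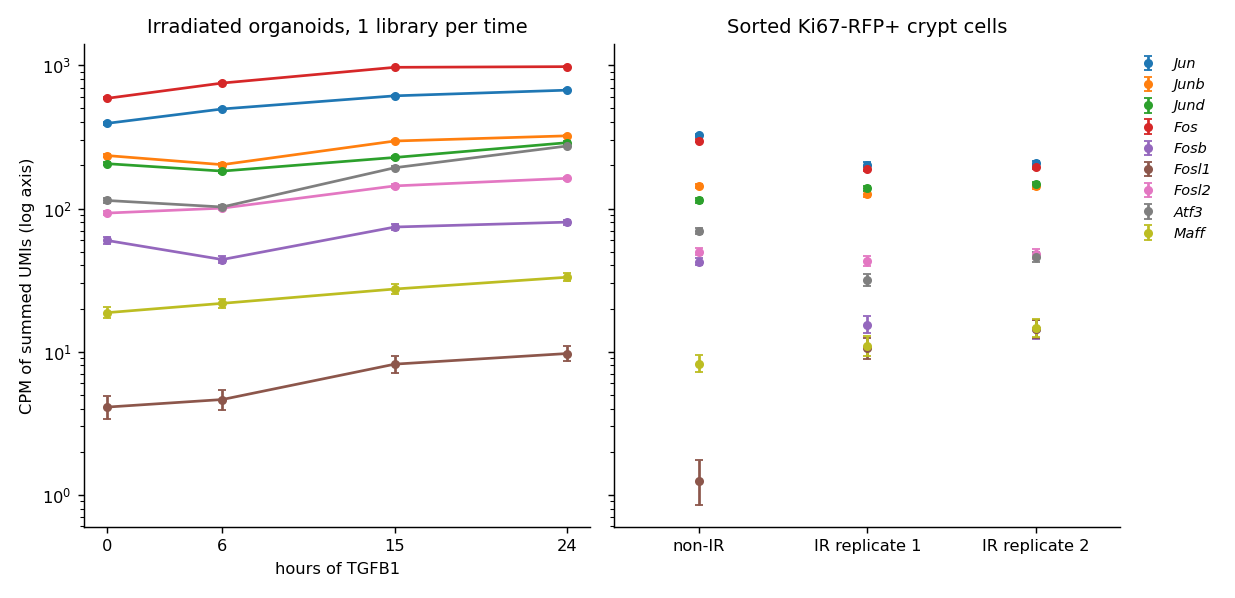
CPM of summed UMIs (log axis) of the 9 AP-1 genes by hours of TGFB1 in irradiated organoids (left, 1 library per time) and in the 3 libraries of sorted Ki67-RFP+ crypt cells (right), with 95% exact Poisson intervals. On the left all 9 genes end above their 0 h level, and on the right Fosl1 climbs from 1.24 CPM to 10.6 and 14.4 while Fos, Jun, Fosb and Atf3 are lower in both irradiated libraries.

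Single cells and bulk RNA differ in dose, day and assay, so their TGFB1 ratios are given side by side only. Fos was 7.91-fold higher in bulk irradiated D7 organoids and 1.66-fold higher in cells at 24 h, Jun 5.79-fold and 1.71-fold, and Fosl1 8.28-fold and 2.37-fold. Of the 9 genes, 7 ranked higher in 0 h cells than in irradiated D7 vehicle bulk RNA, with a median difference of 16.9 percentile points. In 24 h cells against irradiated D7 TGFB1 bulk RNA 5 of 9 did, with a median of 3.76 points (-26.5 to 61.4). The share of all genes that ranked higher in cells was not computed. Among 13672 genes detected in both irradiated vehicle bulk RNA and 0 h cells, Fos stood at percentile 55.2 in bulk and 98.4 in cells, Atf3 at 47.1 and 90.9, Jun at 71.1 and 97.7 and Fosb at 13.1 and 81.9. Jund (96.5 and 95.4), Maff (59.3 and 56.4) and Fosl1 (32.4 and 33.3) differed by less than 3 points.

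Organoids for single cells were dissociated with a warm enzyme, while bulk RNA was taken from organoids by a column kit. Of 17 other immediate-early genes, 14 stood at a higher percentile in 0 h cells than in vehicle bulk RNA, with a median difference of 22.2 points. In 24 h cells against TGFB1 bulk RNA 15 of 17 did, with a median of 12 points. Of 10 heat-shock genes that dissociation is known to raise, 9 stood higher in 0 h cells, with a median difference of 5.21 points. At 24 h 8 of 11 did, with a median of 3.79 points. These counts too have no share over all genes beside them. Over the time course the summed CPM of the immediate-early list was 1730, 1720, 2330 and 2590, and that of the heat-shock list 6380, 6840, 5020 and 5270. Such a sum follows the most abundant genes of its list. At 24 h, 2 of 10 heat-shock genes were at least 2-fold higher than at 0 h (5.44% of all genes) and 0 lower (1.83%). Their median log2 ratio was -0.09, against 0.03 over all genes. The part of dissociation in the AP-1 values was not tested.

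In the sorted crypt cells, 1846 non-irradiated and 719 and 699 irradiated cells were kept, with medians of 11968, 14399 and 13500 UMIs. Fosl1 was the one AP-1 gene at least 2-fold higher in both irradiated libraries, where 10.4% of all genes were. It stood at 1.24 CPM (0.849 to 1.75, from 32 UMIs) without irradiation and at 10.6 (8.91 to 12.4, from 145 UMIs) and 14.4 (12.4 to 16.7, from 178 UMIs) after it. These are 8.50-fold (5.77 to 12.9) and 11.6-fold (7.94 to 17.5) differences.

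Fosb, Fos, Jun and Atf3 were lower in both irradiated libraries. Fosb, at 42.5 CPM without and 15.4 and 14.3 with irradiation, was at least 2-fold lower in both libraries, where 4.7% of all genes were. Fos went from 297 to 190.3 and 197 CPM, Jun from 324 to 202 and 206, and Atf3 from 70.0 to 31.8 and 45.8, which is past 2-fold in the first library only (7.04% of all genes were 2-fold lower there). Junb (143 against 125 and 143) and Fosl2 (49.8 against 43.2 and 48.0) had ratios from 0.868 to 0.995, while Jund (114 against 138 and 148) and Maff (8.25 against 11.0 and 14.7) were higher. With 1 non-irradiated library these are differences between libraries, with no replicate check on that side.

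The summed CPM of regenerative markers was 1.83 in the non-irradiated and 456 and 579 in the irradiated libraries. That of the other immediate-early genes was 987, 810 and 912 and that of the heat-shock genes 6480, 9590 and 8600. The heat-shock genes did not move as one. Of 10, 1 and 0 were at least 2-fold higher in the 2 irradiated libraries (10.9% and 12.0% of all genes) and 2 and 2 lower (7.04% and 5.64%). Their median log2 ratios were 0.59 and 0.30, against 0.12 and 0.14 over all genes. Non-irradiated and irradiated crypts had been passed through strainers of different mesh. The part of these differences in the AP-1 values was not tested.

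To see which cells carried the transcripts, cells were clustered within each experiment with the AP-1 genes left out of the gene selection, and clusters were named only from marker lists. Among the organoid clusters the Regenerative-like one stood apart. Its first leading genes were Ada, Tm4sf4, Sprr1a, Pnliprp2 and Msln, of which Sprr1a and Msln are on the marker list. This cluster had a median of 8796 UMIs and 105, 151, 143 and 149 cells by time. It had the lowest Fos of any cluster at each time, 88.1, 197, 294 and 331 CPM, where the other clusters with at least 50 cells in a library lay between 480.1 and 1318. Jun was likewise lowest there at each time, at 126, 228, 259.7 and 376 CPM. Fosl1 was highest there at 0, 15 and 24 h, at 9.58, 17.6 and 21.0 CPM. At 6 h it was 15.4 CPM, below the 16.5 CPM of an unnamed cluster led by Thbs1, Cym and Clu that held mostly 15 and 24 h cells. The whole libraries held 112, 150, 215 and 297 Fosl1 UMIs by time, so these cluster values rest on few UMIs. Their order between clusters and times may lie within counting error. Fos and Jun thus lay higher at each later time in the Regenerative-like cells too. With a finer clustering 2 clusters were named Regenerative-like, with 108, 171, 232 and 335 cells by time when joined. They thus took in cells from other clusters and are not a split of the same cells. The first, led by Ada and Pnliprp2, had low Fos (316 CPM at 24 h, with 16.9 CPM of Fosl1). Over the other cells, the regenerative markers had a median fold of 2.29 in this first cluster and 16.8 in the second. The second, led by Anxa1 and Anxa8, held 940.0 CPM of Fos and 36.7 of Fosl1 at 15 h and 881 and 22.6 at 24 h, so that the joined class had 774 CPM of Fos at 24 h. High Fosl1 was thus found in both, and low Fos in the first.

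Mitotic-like cells had Fos that rose up to 15 h (643, 911, 1189 and 1158 CPM), rising Jun (383, 569, 729 and 867) and low Fosl1 (4.6, 3.41, 5.94 and 7.33). Enterocyte-like cells, of 2 clusters joined, 1 holding 825 of the 1098 cells at 0 h and the other 199 of the 201 at 24 h, had Atf3 at 164, 128, 235 and 298 CPM and Fos at 540.0, 563, 771 and 784. Goblet-like cells, whose leading genes also included the enteroendocrine genes Chgb, Cck and Chga, held 771, 904, 1124 and 1023 CPM of Fos. Fos and Jun were higher at 24 h than at 0 h in each named class with at least 50 cells at both times. Unnamed clusters held 16.8% of the 0 h cells and 73.5% of the 24 h cells, so the named classes leave out most cells at 24 h.

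Apart from the Goblet-like cluster (68 non-irradiated cells, 38 and 20 irradiated) and a cluster of 8 cells, crypt clusters held cells mostly of one side of irradiation, so they are described by their own levels. The Regenerative-like cluster, of 256 and 349 irradiated cells, had Fosl1 at 19.5 and 20.9 CPM. The other 2 clusters with at least 50 irradiated cells per library, both unnamed, had 8.02 and 8.85 CPM in one and 5.84 and 5.35 in the other. Every non-irradiated cluster of at least 50 cells had at most 2.14 CPM, with 0.808 in 729 Stem-like cells and 1.24 in 317 Enterocyte-like cells. Fos in the irradiated clusters lay between 171 and 188 CPM and in the non-irradiated ones between 251 and 419.9. With the finer clustering the Fos ranges met: an unnamed irradiated cluster led by small RNA genes held 246 and 318 CPM, and 240 Stem-like non-irradiated cells held 206. Fosl1 stayed apart there, at 6.92 CPM or more in each irradiated cluster of that size and at most 2.12 in the non-irradiated ones. These Fosl1 values rest on few UMIs, as the whole libraries held 32 without irradiation and 145 and 178 after it.

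**Figure D5:**
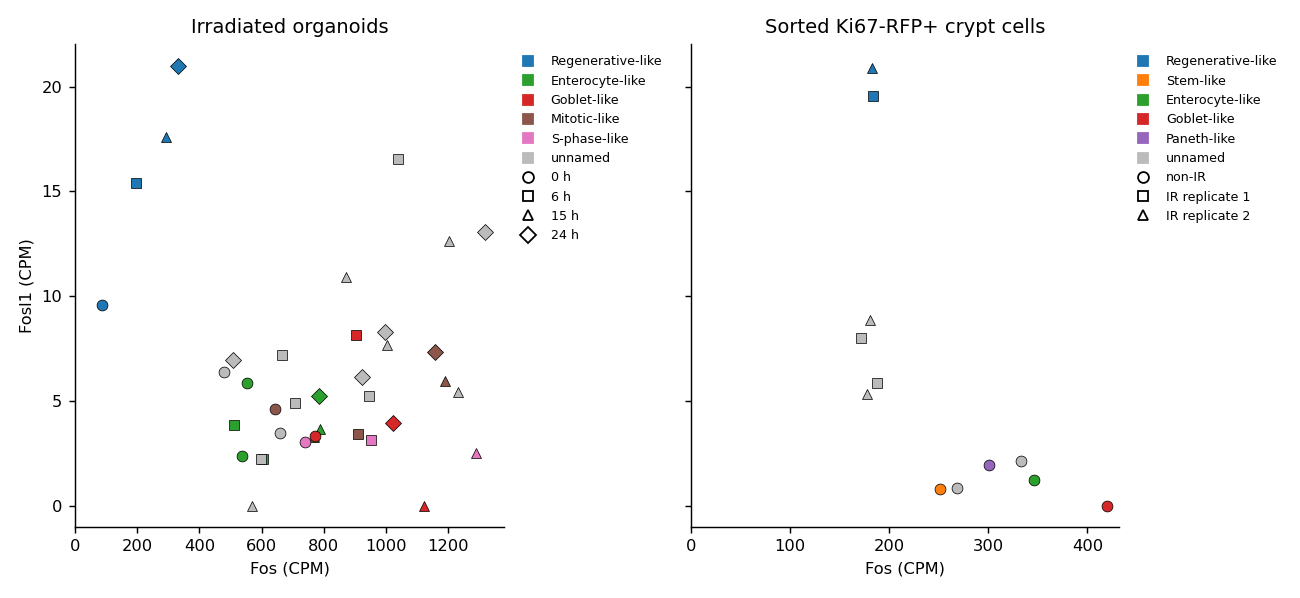
Fos (horizontal axis, CPM) against Fosl1 (vertical axis, CPM) for each cluster and library with at least 50 cells, in irradiated organoids (left) and sorted crypt cells (right), coloured by class and shaped by library. Regenerative-like cells lie at high Fosl1 in both panels, with 20.9 CPM of Fosl1 in the second irradiated crypt library.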

How the data were processed

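Bulk RNA values are FPKM as deposited by the authors, 1 table for each of the 3 settings; the submitters' processing notes list TopHat2 2.1.0, Cuffnorm 2.2.1 and the builds mm9, GRCm39 and mm39 with no role. Single-cell values are expected counts of UMIs as deposited by the authors, some fractional (the notes list STARsolo), and were summed without rounding. Their groups were taken from the sample labels. The 9 members, the other gene lists and the tests were chosen with earlier results of these data known. All 9 members were named, and of the other lists up to 3 genes a comparison, taken from those with the largest absolute log2 change among called genes without overlap. The TGACGT core was added as a motif after the promoters had been read.

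For each table, limma 3.58.1 (R 4.3.3, trend and robust) was run on log2(FPKM + 1) for genes averaging 1 FPKM or more, two-sided, with Benjamini-Hochberg adjustment over all tested genes and a threshold of 0.05, and the script was tested on simulated data. A fold change on that scale understates the change of low genes. Barcodes needed 500 UMIs, 250 genes and a mitochondrial share no higher than 20%. Scrublet marked between 0.286% and 1.56% of cells per library as doublets, which were kept. Clusters were made with scanpy 1.11.5 (2000 variable genes without the members, 30 principal components, 15 neighbours, Leiden resolution 0.6). Clusters led by pseudogenes or small RNA genes were given no name, a rule set after seeing the data. The 18 ATAC libraries were not used here, since their peaks could not be placed on gene positions of the same build, so the planned look at start sites was not made.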

Additional observations from a re-analysis of the deposited data

Results flagged for a closer look

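The effect of TGFB1 on 7 genes differed between irradiated and non-irradiated D7 organoids by limma's test of the interaction. The differences on the log2 scale, irradiated minus non-irradiated, were 1.02 for Jun, 0.92 for Junb, 0.82 for Jund, 1.11 for Fos, 0.39 for Fosl2, 0.93 for Atf3 and 0.27 for Maff. Of all genes tested, 25.3% were called with a larger and 27.8% with a smaller effect after irradiation. The call of Maff was lost in 8 of the 12 fits that left out a library and with the replicate number as a block (limma adjusted p = 0.0842).

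The effect on 8 genes differed between D11 and D7 irradiated organoids by the same kind of test. The differences, D11 minus D7, were -0.92 for Jun, -1.51 for Junb, -0.75 for Jund, -1.80 for Fos, -0.81 for Fosl2, -0.60 for Atf3 and -0.98 for Maff. Fosl1 alone among these 8 had a difference of the other sign, 0.48. That call was lost in 7 of the 12 fits that left out a library (limma adjusted p up to 0.0846), and the difference was 0.29 without the third irradiated D7 vehicle library. Of all genes tested, 31.5% were called with a larger and 33% with a smaller effect at D11.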

How the results depend on the processing

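Under the alternatives, 111 recomputed counts and class levels kept their size and 8 moved. Of the values of single genes in bulk RNA, 607 kept direction and call, 20 lost the call, 12 gained it and 5 changed sign, and of the other values 332 kept their size and 21 moved. With a call that also needed a 2-fold change, 4 genes were called in non-irradiated D7 and 3 in D11 organoids, while calls over all genes went from 7732, 8495 and 7335 to 956, 1484 and 1574. At 15 h, 1 gene (Fosl1) was at least 2-fold higher with at most 10% mitochondrial UMIs, 1 with all barcodes and 1 without doublets, where 2.66%, 2.62% and 2.63% of all genes were. With a 1.5-fold limit the counts were 5 at 15 h (7.65% of all genes) and 6 at 24 h (12.0%). Fos in Regenerative-like cells at 24 h was 774 CPM at Leiden resolution 1.0, where the class held 335 cells against 149 at resolution 0.6.

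Signs turned for Jund in non-irradiated D7 organoids with quantile normalization (-0.0673) and for the irradiation difference of Fosl1 with a pseudocount of 0.1 (-0.0592). Leaving out single libraries moved the D11 values from -0.117 to 0.152 for Junb and from -0.0874 to 0.216 for Jund, and the counts of members called from 7 to 7, 8 to 8 and 5 to 6 in the 3 tables. The causes were not tested.

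The deviations of same-numbered vehicle and TGFB1 libraries had correlations from -0.0856 to 0.213, and those of different-numbered ones from -0.165 to 0.204. With 3 libraries per group these values cannot decide whether the numbers pair the libraries. With the replicate number as a block, Maff at D11 (log2 0.347) had a limma adjusted p of 0.0319 and the irradiation difference of Fosl1 (0.42) one of 0.0137, while that of Maff (0.273) had 0.0842. Bulk depth is unknown, and Fosl1 in single cells rests on 32 to 297 UMIs per library. The window alternatives for ATAC peaks were not run.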
